A study of Homo sapiens with 4 samples.

Results

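CXCL1, CXCL2, CXCL3, CXCL5, CXCL6 and CXCL8, the CXC chemokines that draw neutrophils, are 6 of the 20263 genes in the deposited count table. Their rows were found by symbol, and the family was chosen by its RB-BC over DMSO difference in these same libraries, so that difference is given as a description, with no test. Their Ensembl identifiers are ENSG00000163739 (CXCL1), ENSG00000081041 (CXCL2), ENSG00000163734 (CXCL3), ENSG00000163735 (CXCL5), ENSG00000124875 (CXCL6) and ENSG00000169429 (CXCL8). The study profiled MDA-MB-231, an established line of triple-negative human breast cancer cells, by RNA sequencing. One group of 2 libraries came from cells given the vehicle DMSO, and the other group of 2 from cells given RB-BC, a ribociclib derivative according to the series title. Ribociclib is an inhibitor of the cell cycle kinases CDK4 and CDK6. The labels' treatment protocol gives 24 h of exposure in medium with 10% serum and writes the compound as Rib_CA, while the sample labels write RB-BC. Whether those names mean the same compound, and at what dose it was given, is not stated in the sources used here. Nothing in the labels places the replicates in separate cultures, so the p-values below reflect the spread between these 4 libraries, and that spread may be technical.

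CXC chemokines are small secreted proteins named for the spacing of their first cysteines. Those studied here carry a glutamate-leucine-arginine motif before that pair and bring neutrophils to sites of injury and to tumours. On these cells they bind the G protein-coupled receptor CXCR2, and some also bind CXCR1. Their genes are textbook targets of the transcription factor NF-kB, with AP-1 and C/EBP proteins as partners, and their messenger RNAs are short-lived because decay factors recognise AU-rich stretches in the 3′ untranslated region. In basal breast cancer lines they are known as autocrine and paracrine inflammatory signals.

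The stretch of DNA that these genes have in common is shown first, because all 6 carry it close to their start. RefSeq promoter sequences (build GRCh38.p14) were matched for 6 of 6 genes, and the last 130 bases before the annotated start of each are printed 5′ to 3′ on the gene's own strand, with the 9-base NF-kB core GGAATTTCC in capitals. CXCL1 lies on the plus strand (chr4:73869263-73869392), as do CXCL6 (chr4:73836548-73836677) and CXCL8 (chr4:73740439-73740568). CXCL2 (chr4:74099196-74099325), CXCL3 (chr4:74038690-74038819) and CXCL5 (chr4:73998678-73998807) lie on the minus strand. These positions belong to the RefSeq sequences and not to the deposited counts, whose human build no source used here gives.
CXCL1: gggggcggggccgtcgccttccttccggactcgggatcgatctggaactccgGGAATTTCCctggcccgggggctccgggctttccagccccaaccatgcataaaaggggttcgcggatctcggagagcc
CXCL2: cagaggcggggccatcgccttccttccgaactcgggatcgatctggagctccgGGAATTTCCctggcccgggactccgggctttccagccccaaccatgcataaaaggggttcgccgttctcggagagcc
CXCL3: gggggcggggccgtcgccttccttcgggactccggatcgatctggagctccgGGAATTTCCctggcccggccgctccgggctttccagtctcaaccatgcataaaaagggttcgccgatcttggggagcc
CXCL5: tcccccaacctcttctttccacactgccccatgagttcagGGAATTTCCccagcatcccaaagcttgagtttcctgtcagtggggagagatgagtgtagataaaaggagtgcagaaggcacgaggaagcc
CXCL6: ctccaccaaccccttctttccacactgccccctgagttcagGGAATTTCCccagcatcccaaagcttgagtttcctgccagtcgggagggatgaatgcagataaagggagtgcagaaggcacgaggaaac
CXCL8: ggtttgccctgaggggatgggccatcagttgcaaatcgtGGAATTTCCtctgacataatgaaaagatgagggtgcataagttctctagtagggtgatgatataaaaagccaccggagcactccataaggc

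The core GGAATTTCC was present on the sense strand in all 6 promoters, against 117 of 27305 promoters of the same 250-base length (0.428%), both strands searched. The motif was chosen with these sequences in view. Counted from the annotated start at 0, its first base lay at −78, −77 and −78 in CXCL1, CXCL2 and CXCL3, and at −90, −89 and −91 in CXCL5, CXCL6 and CXCL8. The longer 10-base NF-kB consensus, which overlaps the core, matched 5 of the 6 (all but CXCL8) and 5.05% of all promoters. The AP-1 motif TGANTCA occurred in CXCL8 alone among the 6, from −137, and in 6.6% of all promoters. The C/EBP motif TTGCNNAA occurred in CXCL2 alone, from −188 on the other strand, and in 9.13% of promoters, and the TATA box TATAAA in CXCL8 alone, from −31, and in 11.1%. A match is a string of letters that meets the whole motif, and no binding was measured. Near matches were not counted, such as ttgcaaat in CXCL8 for C/EBP or cataaaa in CXCL1, CXCL2 and CXCL3 for TATA.

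**Figure D1:**
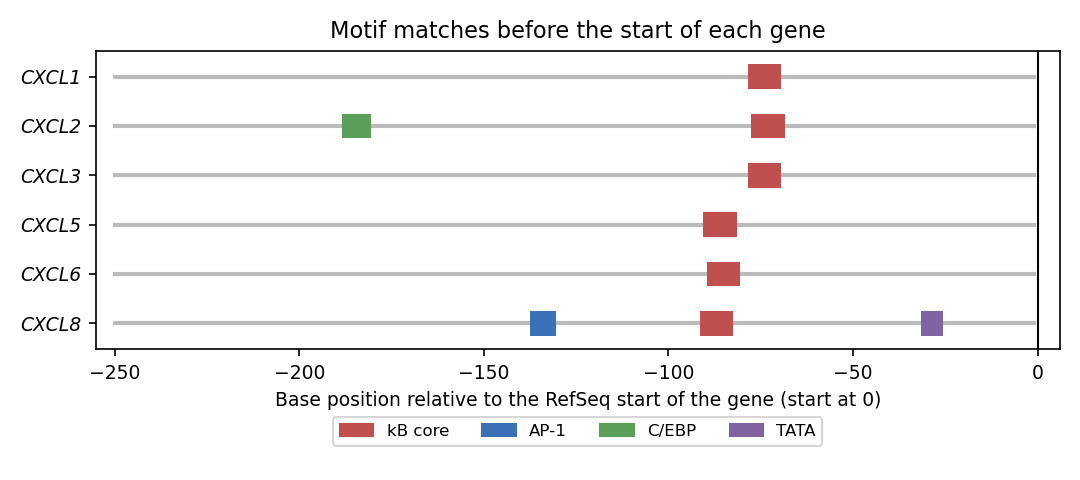
Motif matches in the 250 bases before the RefSeq start of each gene, with the horizontal axis in bases relative to that start; coloured blocks mark the NF-kB core, AP-1, C/EBP and TATA motifs on either strand. The NF-kB core begins at −78, −77 and −78 in CXCL1, CXCL2 and CXCL3 and at −90, −89 and −91 in CXCL5, CXCL6 and CXCL8.

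The promoters also differed in how closely they resemble each other. Over those 250 bases CXCL5 and CXCL6 were 85.3% identical, CXCL1 and CXCL3 81.4%, CXCL2 and CXCL3 73.3%, and CXCL1 and CXCL2 68%. CXCL8 was 40.5% to 45% identical to the others. The pair CXCL5 and CXCL6, which has the NF-kB core like the rest, was the pair with almost no reads in any library, as described next.

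Of the 6 genes, 4 had reads in every library, and the other 2 had few or none. CXCL1, CXCL2, CXCL3 and CXCL8 had between 43 and 427 reads in each DMSO library and between 4321 and 23583 in each RB-BC library. Levels are given as CPM, the reads of a gene relative to those of its library, with libraries scaled by the trimmed mean of M values (TMM). These 4 genes passed the low-count filter, and did so on reads in every library, not only in the group where they were high. CXCL5 and CXCL6 did not pass it and have no fold change.

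CXCL8 encodes interleukin-8, the best studied human neutrophil attractant. It was at 6.29 and 12.7 CPM in DMSO 1 and DMSO 2, and at 544 and 298 CPM in RB-BC 1 and RB-BC 2. The RB-BC libraries were far above the DMSO libraries, with no overlap. Its log2 fold change was 5.47 ± 0.48 (SE, 2 libraries per group), or 44.3-fold.

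CXCL1, first described as a melanoma growth-stimulating activity and a ligand of CXCR2, was at 1.57 and 3.4 CPM in the DMSO libraries and at 272 and 165 CPM in the RB-BC libraries. The group means were 2.48 ± 1.3 and 218 ± 76.2 CPM (SD, n = 2). Its log2 fold change of 6.47 ± 0.47 (SE), or 88.4-fold, was the highest of the 4 and ranked 17 among the 13744 genes tested. The lowest RB-BC library stood well clear of the highest DMSO library.

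CXCL2 and CXCL3 encode close relatives of CXCL1 that signal through the same receptor. CXCL2 was at 1.81 and 3.13 CPM in DMSO and at 200 and 120 CPM in RB-BC, with a log2 fold change of 6.03 ± 0.40 (SE), or 65.2-fold. CXCL3 was at 1.14 and 3.55 CPM in DMSO and at 177 and 98.6 CPM in RB-BC, with a log2 fold change of 5.89 ± 0.59 (SE), or 59.3-fold. The groups did not overlap for any of these 4 genes. With 2 libraries against 2 that alone is weak, since an exact two-sided permutation test cannot give a p below 0.333. The share of all genes without overlap is not given here. By fold change CXCL2, CXCL3 and CXCL8 ranked 19, 20 and 23. Differences among these 4 fold changes were not tested. As background, 16.1% of all genes tested were called by edgeR's quasi-likelihood test at an adjusted p of 0.05, with 8.58% called higher and 7.53% called lower. Nothing is read from that share for these 4 genes, since they were chosen by this contrast.

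**Figure D2:**
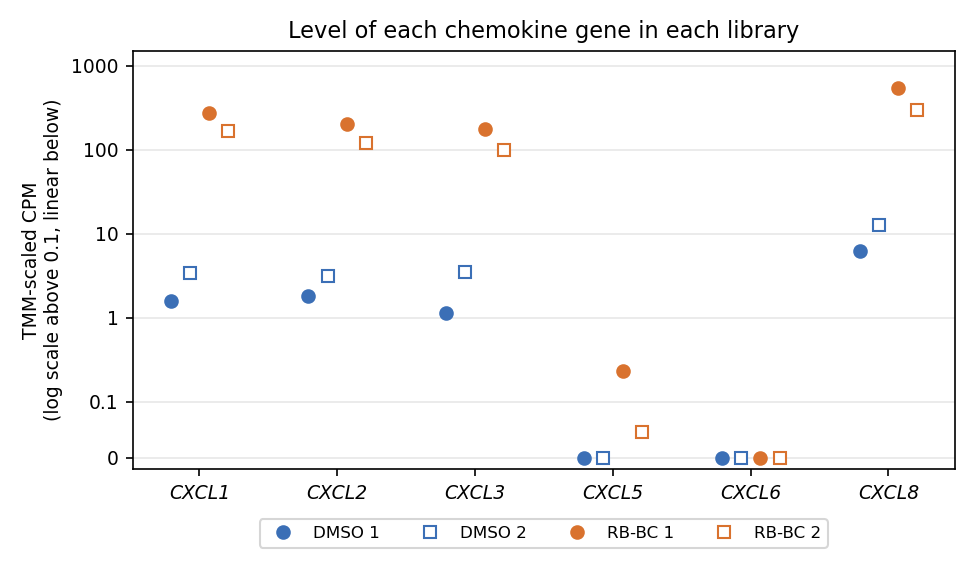
TMM-scaled CPM of each chemokine gene in each library, on a log axis above 0.1 CPM and a linear one below it; blue symbols are DMSO, orange symbols RB-BC, filled circles replicate 1 and open squares replicate 2. CXCL1, CXCL2, CXCL3 and CXCL8 lie at 98.6 CPM or more in RB-BC and at 12.7 CPM or less in DMSO, while CXCL6 lies at 0 in all 4 libraries.

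CXCL5, a neutrophil attractant made by epithelial cells, had 0 and 0 reads in DMSO and 10 and 2 reads in RB-BC. In RB-BC 1 that is 0.234 CPM of the unscaled library total (exact Poisson 95% interval 0.112 to 0.43) and in RB-BC 2 it is 0.0468 CPM (0.00567 to 0.169). Both RB-BC libraries were above both DMSO libraries in this count, but the interval of RB-BC 2 reaches into the range that a count of 0 allows in DMSO, so no fold is given. CXCL6, whose product can use both CXCR1 and CXCR2, had 0 reads in all 4 libraries. A count of 0 allows up to 0.0863 CPM in DMSO 1 and 0.0701 CPM in RB-BC 1, taking 3 reads as the limit. These intervals cover counting error only.

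In all, the 6 genes took 0.00117% of the reads of DMSO 1 (95% Wilson interval 0.001062% to 0.00129%) and 0.002026% of those of DMSO 2 (0.001888% to 0.002175%). They took 0.121% in RB-BC 1 (0.12% to 0.1221%) and 0.06991% in RB-BC 2 (0.06913% to 0.07071%). The intervals cover counting error only, and the replicates of each group lay outside each other's interval. Library totals ran from 34774542 to 42786422 reads. In these bulk libraries, more RNA from every cell and more cells with the RNA cannot be told apart.

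Set against length, the genes can be ordered. Divided by the length of the reference transcript (GENCODE release 29), the RB-BC means were 247 ± 102 CPM per kb for CXCL8, 199 ± 69.5 for CXCL1, 132 ± 46.5 for CXCL2 and 128 ± 51.7 for CXCL3 (SD, n = 2). No neighbours in that order differed by more than their spread. Within each RB-BC library, however, CXCL8 came first and CXCL1 next, at 319 and 248 CPM per kb in RB-BC 1 and at 175 and 150 in RB-BC 2. The DMSO means were 5.58 ± 2.67 CPM per kb for CXCL8, 2.26 ± 1.18 for CXCL1, 2.18 ± 1.58 for CXCL3 and 2.03 ± 0.77 for CXCL2. With the length of all annotated exons in place of the transcript, CXCL3 was at 62.1 ± 25 CPM per kb in RB-BC and lay below CXCL2 at 107 ± 37.7 in both RB-BC libraries. Of the 13599 tested genes with a length, 44.1% lay below CXCL8 in DMSO and 98.8% in RB-BC. For CXCL1 the shares were 27.2% and 98.4%, for CXCL2 25.9% and 97.2%, and for CXCL3 26.7% and 97.1%.

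The mixture of chemokine transcripts also differed between the groups. Of the reads of the 4 genes, CXCL8 made up 58.2% in DMSO 1 (95% Wilson interval 53.4% to 62.9%) and 55.8% in DMSO 2 (52.3% to 59.3%). In RB-BC 1 it made up 45.5% (45.1% to 46%) and in RB-BC 2 43.8% (43.2% to 44.3%). These intervals cover counting error only and not the spread between replicates. CXCL1 took the larger part of the difference, at 14.5% and 14.9% in DMSO and 22.8% and 24.1% in RB-BC. For every read of CXCL8 there were 0.249 and 0.267 reads of CXCL1 in the DMSO libraries and 0.501 and 0.551 in the RB-BC libraries, so that the mean ratio was 2.04 times as high. The CXCL2 to CXCL8 ratio was 0.287 and 0.246 in DMSO and 0.369 and 0.403 in RB-BC. For CXCL3 it was 0.181 and 0.279, against 0.326 and 0.33. All 3 ratios were higher in both RB-BC libraries than in both DMSO libraries. With 2 libraries against 2 an exact two-sided permutation test cannot give a p below 0.333, and none is given here because the ratios come from the contrast that chose the genes.

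**Figure D3:**
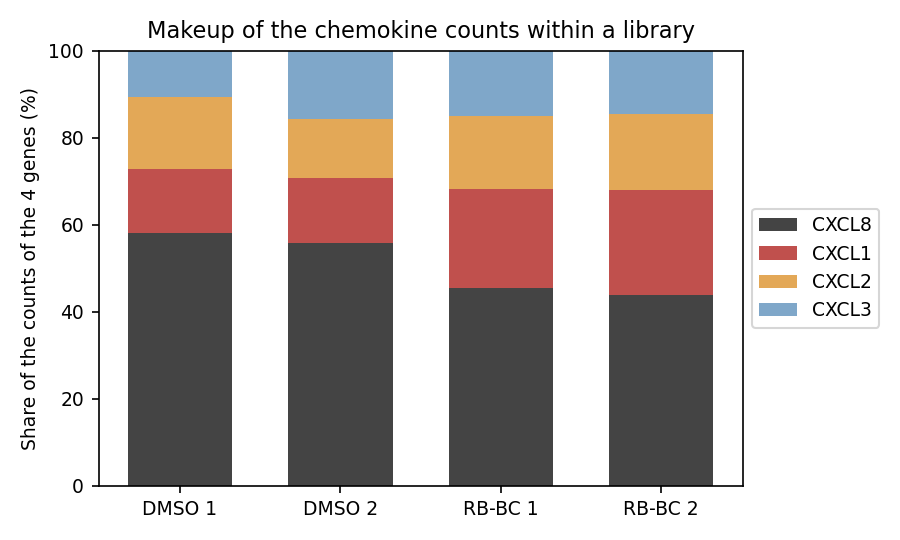
Share of the reads of CXCL1, CXCL2, CXCL3 and CXCL8 that each gene took, in percent, for each library. CXCL8 takes 58.2% and 55.8% in the DMSO libraries and 45.5% and 43.8% in the RB-BC libraries, and CXCL1 goes from 14.5% and 14.9% to 22.8% and 24.1%.

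CXCL1, CXCL2 and CXCL3 are near relatives, so reads could be credited to the wrong gene. In the reference transcripts, 60 of the 1048 windows of 50 bases in CXCL1 (5.725%) were identical to a window of CXCL2, and 6 to a window of CXCL3. CXCL2 and CXCL3 shared 54 such windows. No window of 100 bases was identical between any of the 6 genes, and no 50-base window was shared by CXCL5, CXCL6 or CXCL8 with another member. No source used here gives the read length or the treatment of shared reads. With the 3 genes added up, there were 170 and 338 reads in DMSO and 28193 and 16807 in RB-BC, and the log2 fold change of the sum was 6.15 ± 0.50 (SE).

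In both groups the gap between replicates, taken with its sign, was larger for these genes than for most. DMSO 2 was above DMSO 1 by 1.11 (CXCL1), 0.79 (CXCL2), 1.63 (CXCL3) and 1.02 (CXCL8) on the log2 CPM scale, while the median of 12219 genes with a mean of at least 50 reads was −0.01. Between 95.2% (CXCL2) and 99.3% (CXCL3) of those genes had a lower value. RB-BC 1 was above RB-BC 2 by 0.73, 0.74, 0.85 and 0.87 for CXCL1, CXCL2, CXCL3 and CXCL8, higher than in 98% to 98.6% of genes. The 4 genes thus differed between replicates in the same direction in each group. DMSO 2 also stood apart in its mitochondrially encoded reads, 21.7% of the total, where DMSO 1 had 8.68% and the RB-BC libraries 10.1% and 10.3%. The part of that share in the gap between the DMSO libraries was not tested. With mitochondrially encoded genes removed, the log2 fold change of CXCL8 was again 5.47. That fit keeps the same CXCL8 reads, so it does not speak to the gap between the DMSO libraries.

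Between the choices of DMSO library as the reference, the fold changes of all 4 genes differed by more than 1.5 times. Without DMSO 2 the log2 fold changes were 7.12 (CXCL1), 6.47 (CXCL2), 6.91 (CXCL3) and 6.06 (CXCL8). Without DMSO 1 they were 6.01, 5.68, 5.28 and 5.05 in the same order. CXCL3 moved the most, as it had the widest gap between the DMSO libraries, 43 and 119 reads.

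The 6 genes lie in one cluster on chromosome 4, and their neighbours did not all share their pattern. In RefSeq's gene order the cluster runs CXCL8, CXCL6, PF4V1, CXCL1, PF4, PPBP, CXCL5, CXCL3 and CXCL2. The non-member chemokine genes inside it were silent or nearly so: PF4V1 and PPBP, which encode platelet-associated chemokines, had 0 reads in every library, and PF4, platelet factor 4, had 0 and 2 reads in DMSO and 6 and 4 in RB-BC. Silent and transcribed genes thus alternate along the cluster, with CXCL6 and PF4V1 at 0 between CXCL8 and CXCL1.

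Beyond the edges, RASSF6, a RAS-association domain gene next to CXCL8, was at a log2 fold change of −0.03 ± 0.35 (SE, edgeR adjusted p = 0.96), and without DMSO 2, without RB-BC 1 or with library totals alone its sign was positive. MTHFD2L, a mitochondrial folate enzyme gene next to CXCL2, was at −0.18 ± 0.24 (edgeR adjusted p = 0.63) and at 0.08 without DMSO 1. EREG, which encodes the EGF receptor ligand epiregulin, lies past MTHFD2L and EPGN. It was at 20.5 and 25.4 CPM in DMSO and at 72.4 ± 2.31 CPM in RB-BC (SD, n = 2), and it rose by 1.66 ± 0.16 on the log2 scale (SE, edgeR adjusted p = 0.00759). EPGN, AFM and AFP had 11 reads or fewer in each library and were not tested.

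**Figure D4:**
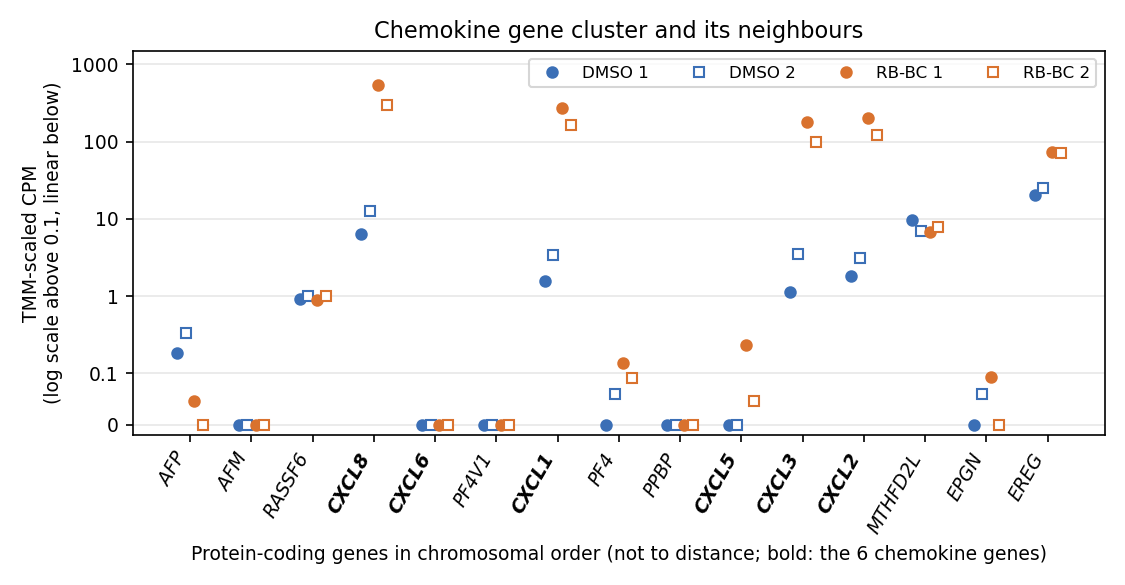
TMM-scaled CPM of the protein-coding genes of the chemokine cluster and the 3 genes on either side, in chromosomal order and not to distance; the axis is logarithmic above 0.1 CPM and linear below, and colours and symbols mark the 4 libraries. CXCL8, CXCL1, CXCL3 and CXCL2 stand at 98.6 to 544 CPM in RB-BC, while CXCL6, PF4V1 and PPBP between them lie at 0.

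The receptors through which these chemokines act were not detected. CXCR1 and CXCR2 had 0 reads in all 4 libraries, which allows up to 0.0863 CPM in DMSO 1 and 0.0702 CPM in RB-BC 2. Of 10 CXC receptors and scavenging receptors, 3 had enough reads for the test, and 0 passed edgeR's test, against 16.1% of all genes tested. At an unadjusted p of 0.05 the count was also 0 with edgeR, with DESeq2 and with limma-voom. The share of all genes at that unadjusted cut is not given, here or for the lists below. CXCR4, the receptor of CXCL12, was at 1.14 and 0.806 CPM in DMSO and at 0.784 and 0.867 CPM in RB-BC (log2 fold change −0.24 ± 0.39, edgeR adjusted p = 0.689, and 0.04 without DMSO 1). CXCR6 was at −0.48 ± 0.88 (edgeR adjusted p = 0.729), and at 1.68 without DMSO 1 and 0.07 with limma-voom. ACKR1, a chemokine scavenger of the endothelium and red cells, had no reads.

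Among the other 11 CXC ligands, 3 were tested, 1 was called higher and 0 lower, and 5 had no read in any library. Over all genes tested, 8.58% were called higher and 7.53% lower. CXCL10, an interferon-induced ligand of CXCR3, had no reads in DMSO and 25 and 45 reads in RB-BC. Against a floor of 3 reads per library it was at least 9.47-fold higher (edgeR adjusted p = 0.0192). It passed the low-count filter on its RB-BC reads alone, so nothing is read from its call or from the count of 1. The call of CXCL10 did not hold when either RB-BC library was left out, where calls over all genes tested also fell. Its RB-BC level of 0.801 ± 0.318 CPM (SD, n = 2) was far below those of the 4 transcribed neutrophil attractants. CXCL11, also an interferon-type ligand, was at 2.20 ± 0.70 and did not pass in the main fit (edgeR adjusted p = 0.082). It was at 3.61 without DMSO 2 and at 1.48 without DMSO 1. CXCL16, a membrane-bound chemokine, was at −0.05 ± 0.42 (edgeR adjusted p = 0.949), and its sign was positive with library totals alone, with limma-voom, with the replicate block and without DMSO 2.

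Cytokines known to induce these chemokines, with their receptors, were next examined. Of 22 listed genes 16 were tested, and 6 were higher and 0 lower in RB-BC by edgeR's test. Over all genes tested, 8.58% were higher and 7.53% lower. The list median was 0.43 against 0.00 over all genes tested. At an unadjusted p of 0.05, 2 genes were lower. IL1B, which encodes interleukin-1 beta, was at 1.73 and 2.27 CPM in DMSO and at 223 and 136 CPM in RB-BC. IL1A, for interleukin-1 alpha, was at 1.3 and 1.19 CPM in DMSO and at 28.5 and 19.1 CPM in RB-BC. Both rose (edgeR adjusted p = 0.00378 for each, log2 fold changes 6.49 ± 0.34 and 4.25 ± 0.28). TNFRSF1B, a receptor for tumour necrosis factor, rose by 2.11 ± 0.27 (edgeR adjusted p = 0.0111).

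TNFRSF1A, the main receptor for tumour necrosis factor, was at 0.16 ± 0.14 (edgeR adjusted p = 0.444), and IL6ST, the shared receptor chain of the interleukin-6 family, at 0.19 ± 0.19 (edgeR adjusted p = 0.5) and at −0.01 without DMSO 2. TNF itself, named after its values were seen, had 0, 0, 0 and 9 reads in DMSO 1, DMSO 2, RB-BC 1 and RB-BC 2. With either RB-BC library left out, fewer genes were called in this list, and over all genes tested as well.

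Transcription factors that bind chemokine promoters, and the inhibitors of NF-kB, were examined next. All 28 were tested, and 12 were higher and 0 lower, where over all genes tested 8.58% were higher and 7.53% lower. The list median was 0.52. At an unadjusted p of 0.05, 15 were higher and 1 was lower with edgeR. The share of all genes at that cut is not given here, so nothing is read from those counts. NFKBIZ, which encodes the nuclear NF-kB cofactor that secondary response genes need, went from 24.2 and 32.8 CPM to 290 and 243 CPM (log2 fold change 3.23 ± 0.21, edgeR adjusted p = 0.00378). NFKBIA, which encodes the inhibitor IkB-alpha and is itself an NF-kB target, went from 35.1 and 34.4 to 226 and 187 CPM. CEBPB, the C/EBP family member of inflammatory genes, went from 50.5 and 53.8 to 394 and 319 CPM (NFKBIA 2.57 ± 0.16 and CEBPB 2.77 ± 0.17, edgeR adjusted p = 0.00378 for each).

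Most of the AP-1 genes on this list did not pass. JUNB (1.86 ± 0.29, edgeR adjusted p = 0.016) and JUND (1.13 ± 0.19, edgeR adjusted p = 0.0176), named after their values were seen, rose. Neither passed with RB-BC 1 left out (JUNB at 1.72 and JUND at 0.97), where calls over all genes tested also fell. FOSL1 (0.23 ± 0.38, edgeR adjusted p = 0.691) and JUN (0.42 ± 0.15, edgeR adjusted p = 0.103) did not pass in the main fit. FOSL1 depended on the DMSO library, at 0.96 without DMSO 2 and at −0.24 without DMSO 1. FOS (0.06), FOSB (0.52), FOSL2 (−0.60) and ATF3 (0.46), named after their values were seen, did not pass either. The 5 NF-kB subunit genes, also named after their values were seen, were divided. RELB went from 7.65 and 11.7 CPM to 61.9 and 44.8 CPM (log2 fold change 2.46 ± 0.27, edgeR adjusted p = 0.00881), and NFKB2 from 58.4 and 68.1 to 215 and 189 CPM (1.67 ± 0.16, edgeR adjusted p = 0.00696). RELA (0.54 ± 0.24, edgeR adjusted p = 0.17), REL (0.53 ± 0.17, edgeR adjusted p = 0.0828) and NFKB1 (0.43 ± 0.14, edgeR adjusted p = 0.0859) did not pass. With DMSO 2 left out RELA, REL and NFKB1 did pass, at 0.85, 0.64 and 0.51, and NFKB1 passed with DESeq2 (adjusted p = 0.0489). More genes of the list were called without DMSO 2 and fewer without RB-BC 1, and the same held over all genes tested.

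The core was also looked for outside the chemokines. Of 41 tested genes other than the members with GGAATTTCC in the 250 bases before their start, 7 were called higher (17.1%), with a median log2 fold change of 0.13. Over all 10955 tested genes with a promoter entry, members left out, 902 were called higher (8.23%), with a median of −0.01. For the 10-base NF-kB consensus 77 of 654 were higher (11.8%), for AP-1 47 of 440 (10.7%), for C/EBP 58 of 658 (8.81%) and for TATA 68 of 617 (11%). These are counts with no test.

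The chemokine messages are rich in AU pentamers. Genes for RNA stability factors, not all of which bind AU stretches, were examined as well. The pentamer ATTTA occurred 5 times in the 3′ untranslated region of CXCL1, 10 times in CXCL2, 7 in CXCL3, 11 in CXCL5, 6 in CXCL6 and 9 in CXCL8. Per kb that is 7.05, 13.8, 10.4, 5.51, 5.35 and 7.17, above 92.4% (CXCL6) to 99.4% (CXCL2) of 19398 genes, whose median was 1.41 per kb. The pentamer was found in 65.6% of those genes. The 9-base element ATTTATTTA, which contains the pentamer, occurred 2 times in CXCL1, 4 times in CXCL2 and 1 time in CXCL8, was not found in CXCL3, CXCL5 or CXCL6, and occurred in 6.7% of genes.

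Of 16 genes for RNA stability factors, all tested, 2 were higher and 1 was lower, with a median of −0.13. Over all genes tested, 8.58% were called higher and 7.53% lower, and nothing is read from the count in this list. ZC3H12A encodes regnase-1, an endonuclease that degrades cytokine messages, and went from 5.47 and 10.9 CPM to 101 and 80.7 CPM (log2 fold change 3.48 ± 0.35, edgeR adjusted p = 0.00762). Its relative ZC3H12C rose by 1.83 ± 0.16 (edgeR adjusted p = 0.00636). HNRNPD, which encodes the AU-binding protein AUF1, fell by 0.71 (SE 0.16, edgeR adjusted p = 0.038), from 394 and 479 to 259 and 276 CPM. It did not pass when scaled by library totals only (edgeR adjusted p = 0.0569). Nor did it pass with RB-BC 1 or RB-BC 2 left out, at −0.66 and −0.75, where calls over all genes tested also fell. CNOT1, the scaffold of the deadenylase complex, was at −0.27 ± 0.15 (edgeR adjusted p = 0.251), and the decapping factor PATL1 at 0.01 ± 0.24 (edgeR adjusted p = 0.982), with −0.30 without DMSO 1. ZFP36 (0.92), ZFP36L1 (−0.47), ZFP36L2 (0.26), ELAVL1 (−0.36), KHSRP (−0.57), TIA1 (−0.71) and TIAL1 (−0.33), named after their values were seen, did not pass edgeR's test either. DESeq2 called 3 genes of this list higher and 3 lower, and over all 13744 genes tested it called 1634 higher and 1589 lower. Without DMSO 2 edgeR called more of them than in the main fit, as it did over all genes.

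Proteases that trim chemokines and proteoglycans that hold them on the cell surface formed the last list. Of 18 genes 11 were tested, and 6 were higher and 0 lower by edgeR, where over all genes tested 8.58% were higher and 7.53% lower. The list median was 0.82. At an unadjusted p of 0.05, 2 genes were lower with edgeR. DESeq2 called 2 lower, and over all 13744 genes tested it called 1589 lower. SDC4, which encodes the heparan sulfate proteoglycan syndecan-4, went from 108 and 115 CPM to 350 and 276 CPM (1.48 ± 0.17, edgeR adjusted p = 0.00939). Its call was lost without RB-BC 1, at 1.31. Of the cathepsin genes, CTSS rose from 2.42 and 2.36 CPM to 7.84 and 5.7 CPM (edgeR adjusted p = 0.0195), and CTSL rose by 0.82 ± 0.16 on the log2 scale (edgeR adjusted p = 0.0262). The call of CTSL was lost without RB-BC 1 and without RB-BC 2 (edgeR adjusted p = 0.182 and 0.129), and that of CTSS without RB-BC 1 (edgeR adjusted p = 0.15). SDC1, for syndecan-1, was at −1.07 ± 0.30 (edgeR adjusted p = 0.0593). It passed with DESeq2 (adjusted p = 0.00566), and in edgeR with the replicate block (adjusted p = 0.00886) or with DMSO 1 left out, at −1.40. GPC1, for glypican-1, was at −0.34 ± 0.39 (edgeR adjusted p = 0.579), with 0.05 without DMSO 1 and 0.11 without RB-BC 1. Without RB-BC 1 no gene of this list was called, and without RB-BC 2 3 were higher.

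**Figure D5:**
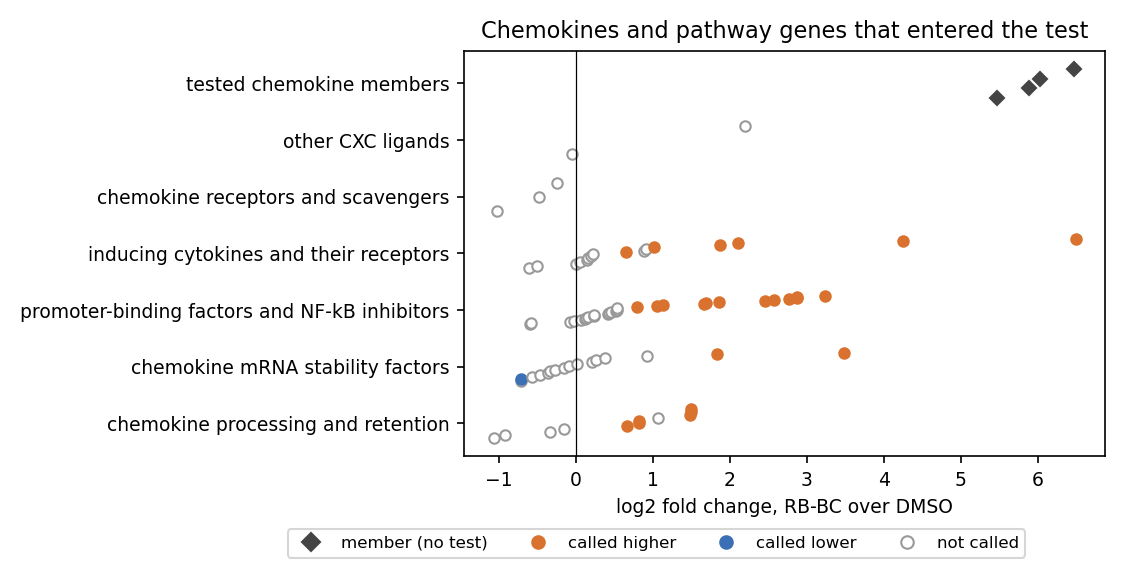
Log2 fold change, RB-BC over DMSO, of the genes of each list that entered the test and had reads in both groups, with 1 point per gene; diamonds are the 4 tested chemokine members, orange points were called higher, blue points lower, and open points were not called. The members lie between 5.47 and 6.47, above all other genes drawn except IL1B at 6.49, and CXCL10, with no reads in DMSO, is not drawn.

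The genes whose profile over the 4 libraries lay closest to the mean profile of CXCL1, CXCL2, CXCL3 and CXCL8 were sought among 12205 tested genes with a mean of at least 50 reads. The measure was the Euclidean distance between centred log2 CPM values. The members themselves lay 0.248 to 0.532 from their own mean. IL6, for interleukin-6, was closest at 0.283, with 1.83 and 4.89 CPM in DMSO and 231 and 125 CPM in RB-BC. CSF2, for the growth factor GM-CSF, followed at 0.483, with 0.956 and 2.15 CPM in DMSO and 83.9 and 54.2 CPM in RB-BC. IL24 (0.675), IL1B (0.687), PTGS2 (1.05), C15orf48 (1.59), C3 (1.64) and IL1A (2.01) came next. PTGS2 encodes the prostaglandin synthase COX-2 and was at 5.05 and 10.6 CPM in DMSO and at 317 and 165 CPM in RB-BC. IL6, CSF2, IL24, IL1B, PTGS2, C15orf48 and C3 repeated both replicate gaps, with DMSO 2 above DMSO 1 and RB-BC 1 above RB-BC 2, and IL1A did so in RB-BC only. This ranking rests on 4 libraries and on the contrast that chose the members, and is a description. The distance takes in the replicate gaps too, so shared gaps follow in part from how these genes were picked. None of the 6 of these genes with a promoter entry (all but C15orf48 and C3) held the core GGAATTTCC in its 250 bases, and IL6 alone matched the longer NF-kB consensus.

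The label of the cells was compared with its markers, and leukocyte markers were examined because leukocytes also make these chemokines. VIM, for the mesenchymal filament vimentin, was at 3303 to 5465 CPM, AXL at 1201 to 1782 CPM and CD44 at 447 to 568 CPM, while CDH1, for E-cadherin, had 2 reads or fewer in each library. Of the other markers listed as high, S100A4 was at only 5.26 to 8.67 CPM. CAV1, for caveolin-1, fell from 572 and 574 to 264 and 272 CPM (edgeR adjusted p = 0.0113), and LGALS1, for galectin-1, rose from 265 and 245 to 621 and 438 CPM (edgeR adjusted p = 0.0256). Neither passed with RB-BC 1 left out (edgeR adjusted p = 0.127 and 0.186), nor CAV1 with RB-BC 2 left out (edgeR adjusted p = 0.0857). EPCAM, an epithelial marker listed as low, was at 5.49 to 9.34 CPM, a range that overlaps that of S100A4. Of 14 leukocyte markers 8 had no read in any library, including the neutrophil markers CSF3R, FCGR3B, MPO, ELANE, S100A8 and S100A9. The summed level of the list was 187 and 374 CPM in DMSO and 507 and 540 CPM in RB-BC, of which CD68, a lysosomal protein gene that tumour cells also transcribe, made up 148 and 332 CPM in DMSO and 471 and 502 CPM in RB-BC. ITGB2, for the leukocyte integrin chain CD18, was the next most abundant, at 38.2 and 40.4 CPM in DMSO and at 33.7 and 35 CPM in RB-BC. PTPRC, the pan-leukocyte gene CD45, was at 0.584 and 0.388 CPM in DMSO and at 1.06 and 1.1 CPM in RB-BC. No leukocyte marker passed edgeR's test, while 2 of 4 tested had an unadjusted p under 0.05. The share of all genes at that unadjusted cut is not given here. DESeq2 called 1 marker, and it called 3223 of all 13744 genes tested.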

How the data were processed

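RNA was sequenced from 4 MDA-MB-231 libraries, 2 per group, made from 1.4 µg of total RNA with an mRNA kit, per the labels' protocols. Values are the raw counts that the authors deposited, whole numbers for each human Ensembl gene. No source used here gives the aligner, counter, strand setting or annotation, and the submitters' processing notes name GRCm38 and mm10, which are mouse assemblies. Symbols came from a table of gene identifiers and names (20148 genes) and GENCODE release 29 (76 genes), and 39 identifiers had none.

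Counts were filtered with filterByExpr (minimum count 10, minimum total 15), scaled by TMM and tested, two-sided, with edgeR 4.0.16 in R 4.3.3 (quasi-likelihood, Benjamini-Hochberg over 13744 genes, threshold 0.05). Standard errors are the log2 fold change over the root of the F statistic. CPM stands for counts-per-million, computed here from the deposited counts. Alternatives were RLE factors, library totals, other filters, DESeq2 1.42.0, limma-voom (limma 3.58.1), a replicate block, mitochondrial genes removed, CXCL1 to CXCL3 summed, a ratio of mean CPM, and each library left out. A lone library is then assumed to vary like the other group's pair.

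The members and all gene lists were chosen with earlier results of these data known. Named genes were all members, the 3 called genes with the smallest adjusted p in each list (all where 5 or fewer passed), the 2 most abundant genes not called, the tested genomic neighbours and the 8 genes nearest in profile. Other genes were named after their values were seen. Genes named in the marker lists were chosen to check the labels.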

Additional observations from a re-analysis of the deposited data

How the results depend on the processing

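The log2 fold changes of CXCL1, CXCL2, CXCL3 and CXCL8 were positive under every alternative run. Their median, 5.96, was between 5.95 and 6.05 under the alternatives that kept 4 libraries and took the 4 genes singly. With CXCL1, CXCL2 and CXCL3 summed, the median of that sum and CXCL8 was 5.81. With a library left out, the median of the 4 genes was between 5.48 (without DMSO 1) and 6.69 (without DMSO 2). Whether replicate numbers pair the libraries is not stated in the labels. Over genes, the difference of the DMSO libraries and that of the RB-BC libraries had a correlation of −0.0204. That value cannot settle pairing, as a library that stands apart, such as DMSO 2, can hide a shared effect. With the replicate block the median was 5.97 and 2114 genes were called, against 2214 without it. Among the genes named by rule, SDC1 was the one whose call changed. With library totals alone 1205 genes were called, 790 higher and 415 lower, and the share of higher calls was 65.6% in place of 53.3%. With a library left out, calls ran from 205 (without RB-BC 1) to 3648 (without DMSO 2). The cause of these shifts was not tested.

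Calls in the lists moved as follows. Other CXC ligands had 1 call, 0 with a mean of at least 50 counts, where CXCL10 was not tested, and 0 to 2 with a library left out. RNA stability factors had 3 calls, 6 with DESeq2, and 2 to 7 with a library left out. Processing and retention genes had 6 calls and 0 to 8 with a library left out. Inducing cytokines and receptors had 6 and 3 to 8. Promoter-binding factors had 12 and 8 to 19. Receptors had 0 throughout.

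Signs reversed only for genes that did not pass in the main fit. CXCL16 was at 0.06 with library totals alone, 0.10 with limma-voom, 0.07 with the replicate block, and −0.54 to 0.71 with a library left out. CXCR6 was at 0.07 with limma-voom and RASSF6 at 0.03 with library totals alone. With a library left out, CXCR4 lay between −0.47 and 0.04, CXCR6 between −1.29 and 1.68, FOSL1 between −0.24 and 0.96, GPC1 between −0.98 and 0.11, IL6ST between −0.01 and 0.43, MTHFD2L between −0.39 and 0.08, PATL1 between −0.30 and 0.41, and RASSF6 between −0.11 and 0.05.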
